A study of Mus musculus with 14 samples.

Results

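Atpbd4, whose current symbol is Dph6, 4 further genes of diphthamide synthesis (Dph1, Dph2, Dph3 and Dph5) and their substrate Eef2 were followed through dissected mouse brain tissue. These 6 genes, of the 23337 gene symbols in each count table, were taken by their symbols. Atpbd4 was chosen by its measured genotype difference in these same libraries, and the other 5 by their place in the pathway. The groups were striatum of Thap1 conditional knockout (cKO) mice (3 samples), striatum of wildtype (WT) mice (3), cerebellum of Thap1 cKO mice (4) and cerebellum of WT mice (4). All mice were C57Bl/6 and 6 months old, and the WT mice were littermates of the cKO mice, per the series description. The sources used here give neither the Cre driver nor the deleted part of Thap1, and so not the cells that lost it. They do not state that samples come from different animals, so the p-values reflect sample-to-sample spread, which may be technical.

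Diphthamide is a modified histidine of elongation factor eEF2, the GTPase that moves the ribosome along the mRNA, and is best known as the residue that diphtheria toxin modifies. DPH1 and DPH2, an iron-sulfur enzyme pair served by the electron carrier DPH3 and the J-domain protein DPH4 (Dnajc24), build the first intermediate. DPH5 methylates it, DPH7 (listed under its older symbol Wdr85) removes a methyl group, and DPH6, encoded by Atpbd4, completes the residue by an ATP-dependent amidation. Inherited DPH1 variants in people cause a developmental disorder of the brain. THAP1, a zinc-finger transcription factor, is mutated in the movement disorder DYT6 dystonia, in which striatal and cerebellar circuits are studied.

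Atpbd4 lies on chr2:114516416-114654964 of GRCm38 (mm10), on the minus strand, with 6 annotated transcripts (GENCODE vM21), and its exons share 0 bases with those of other annotated genes. Its promoter window in RefSeq (GRCm38.p6), 300 bases long, was searched for the core of the THAP1 binding motif because THAP1 is the factor deleted in these mice. The core, T followed by any 2 bases and then GGGCA, matched 1 time, on the strand opposite to the gene, 167 to 160 bases before the annotated start. The 250 bases before that start, chr2:114654965-114655214 on the minus strand, are shown with the match in capitals, followed by the match with its flanks, chr2:114655113-114655142, on each strand.
Atpbd4 promoter, gene strand: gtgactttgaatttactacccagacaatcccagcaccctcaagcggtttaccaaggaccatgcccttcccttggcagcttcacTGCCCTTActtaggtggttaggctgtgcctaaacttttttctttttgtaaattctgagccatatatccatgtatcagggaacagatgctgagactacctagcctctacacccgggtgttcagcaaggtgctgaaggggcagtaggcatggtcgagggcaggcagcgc
Match and flanks, gene strand: ggcagcttcacTGCCCTTActtaggtggtt
Match and flanks, plus strand: aaccacctaagTAAGGGCAgtgaagctgcc

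Of 32851 RefSeq mouse promoter windows of the same length, 4571 (13.9%) held this core on either strand. A looser core, T followed by any 3 bases and then GGCA, which takes in every match of the stricter one, was in 13784 windows (42%) and matched the Atpbd4 window 2 times. The YY1 core AAGATGG, a motif of another zinc-finger factor, was in 6.34% of windows and had 0 matches in that of Atpbd4. The windows of Dph1, Dph3, Dph5, Eef2, Wdr85 and Dnajc24 had 0 matches to the stricter THAP1 core. The looser core had 1 match each in a window of Dph1, Dph3 and Dph5, and 0 in those of Eef2, Wdr85 and Dnajc24. The YY1 core had 1 match in a window of Dph3 and 0 in those of the others. No window was matched for Dph2. A match describes letters in a window, and binding was not measured in these libraries.

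Library totals were 12595941 to 14258141 counts in striatum and 19458954 to 28099205 in cerebellum. Levels are given as CPM, a gene's count scaled by its library total and TMM factor. The dissections matched their labels. The dopamine receptor gene Drd2 averaged 245 ± 12.1 CPM in striatum of WT mice, against 0.755 ± 0.645 CPM in cerebellum of WT mice (SD, n = 3 and 4), and the granule cell gene Zic1 averaged 21.0 ± 3.16 and 759 ± 59.7 CPM in these groups. One striatal library, WT replicate 1, stood apart from both other striatal WT libraries. Its chi-square divided by the degrees of freedom was 27.2 and 26.9 against them, whereas it was 6.52 between those other libraries and 5.93 to 11.5 within the remaining groups. Some cell type marker levels differed between the genotypes, and others varied within a group. The summed level of 8 oligodendrocyte markers was 4724 to 5838 CPM in cKO striatum and 7402 to 9107 CPM in WT striatum. In cerebellum it was 3855 to 4392 CPM in cKO and 4519 to 5003 CPM in WT. In striatum 4 of the 8 were called lower, against 0.320% of all tested genes. In cerebellum 6 of the 8 were, against 4.96%. Sums of 6 choroid plexus and ependymal markers were 59.2 to 207 CPM in cKO striatum and 41.5 to 49.8 CPM in WT striatum. In cerebellum the ranges overlapped, at 694 to 3362 CPM in cKO and 28.1 to 2069 CPM in WT. EdgeR called 0 of these markers in either tissue. Ttr made up most of the cerebellar sums and ran from 12.8 to 1971 CPM within WT cerebellum alone. The summed level of 6 astrocyte markers was 1465 to 1735 CPM in cKO striatum and 1287 to 1404 CPM in WT striatum. Of the 6, 0 were called there. In cerebellum the sum was 3194 to 3678 CPM in cKO and 3245 to 3474 CPM in WT. There 3 were called higher and 2 lower, against 2.63% and 4.96% of all tested genes. Of the 6 astrocyte markers, Gfap averaged 202 ± 59.7 CPM in cKO striatum and 67.7 ± 21.8 CPM in WT striatum. In cerebellum Gfap averaged 317 ± 25.1 CPM in cKO and 182 ± 13.0 CPM in WT. Slc1a3 and S100b were the 2 called lower in cerebellum (log2 fold changes −0.20 and −0.23). For 6 microglia markers the sums overlapped, with 0 called: 388 to 396 CPM in cKO striatum and 353 to 440 CPM in WT striatum. In cerebellum they were 105 to 114 CPM in cKO and 99.5 to 111 CPM in WT. Sums of 6 endothelial and meningeal markers overlapped in both tissues, with 0 called in striatum and 1 higher in cerebellum. No marker of these lists was at 0 in any library. The part of these differences in the results on the diphthamide genes was not tested. In bulk tissue, fewer cells of a type and less RNA per cell cannot be told apart.

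Thap1 itself was lower in the libraries labelled cKO. It averaged 5.92 ± 2.08 CPM in cKO striatum and 15.2 ± 1.19 CPM in WT striatum (SD, n = 3 each). The log2 fold change was −1.36 (adjusted p = 0.0562 in edgeR's quasi-likelihood test, SE 0.23). In cerebellum it averaged 6.98 ± 0.364 CPM in cKO and 8.91 ± 1.20 CPM in WT (SD, n = 4 each), and the log2 fold change was −0.34 (SE 0.10, edgeR adjusted p = 0.0488). The groups did not overlap in either tissue. The striatal value passed an adjusted p of 0.05 under 5 of 14 other settings and the cerebellar value lost it under 12 of 16. Reads from outside the deleted part of the gene would not show the deletion.

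Atpbd4 was lower in cKO than in WT in both tissues, at 38.5% of the WT mean in striatum and 33.8% in cerebellum. In cKO striatum its level was 12.6, 17.9 and 14.7 CPM in replicates 1 to 3, against 37.3, 43.7 and 36.5 CPM in WT striatum. Each striatal cKO library was below every striatal WT library, by a gap wider than the range within either group. In cKO cerebellum the level was 6.15, 4.45, 4.89 and 5.26 CPM in replicates 1 to 4, against 14.9, 14.7, 17.1 and 14.7 CPM in WT cerebellum. The cerebellar groups did not overlap either, and the highest cKO library was well under the lowest WT library. These levels rest on 174 to 222 reads per cKO library and 428 to 555 per WT library in striatum, and on 102 to 155 reads per cKO library and 300 to 392 per WT library in cerebellum.

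**Figure D1:**
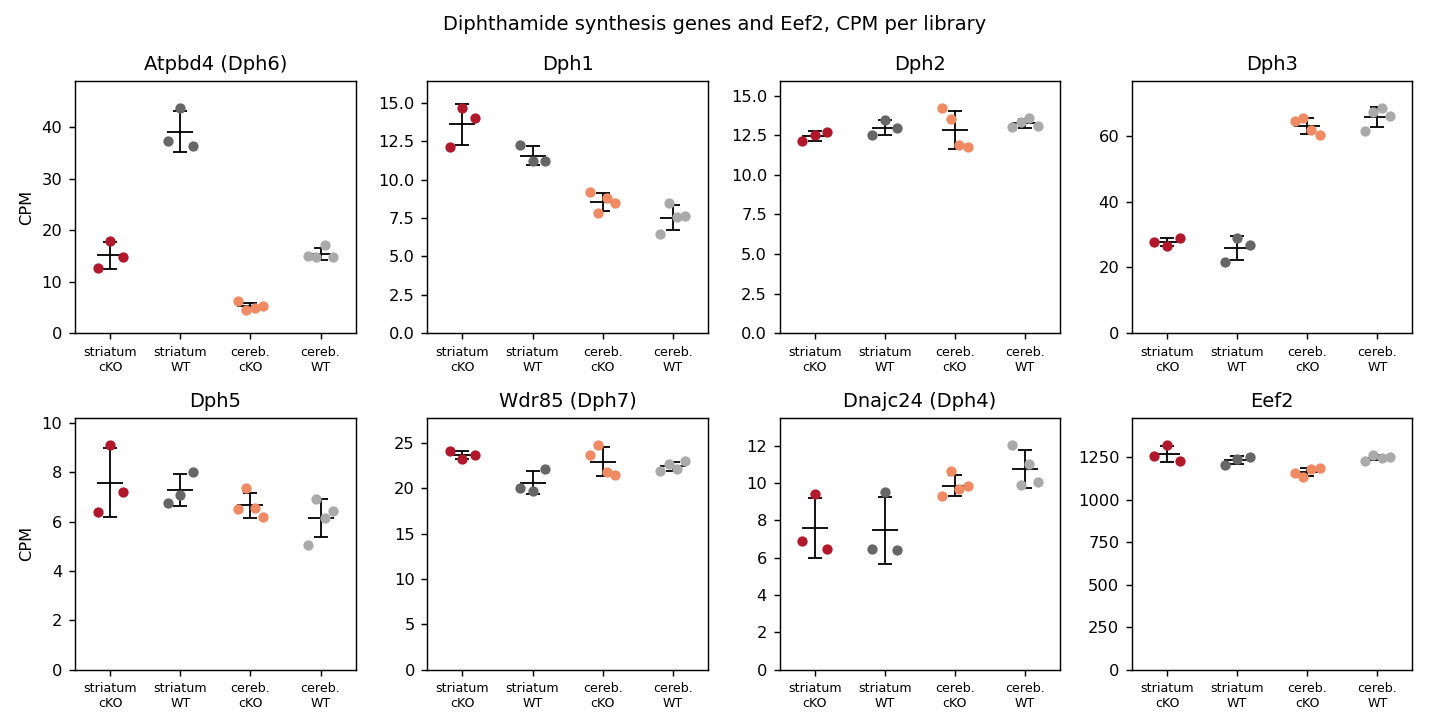
Level in CPM (y axis, linear from 0, a scale of its own in each panel) of the 6 genes, Wdr85 and Dnajc24 in each library, with cKO left of WT within each tissue; points are libraries and bars are the group means ± SD. Atpbd4 separates by genotype in both tissues, from 12.6 to 17.9 CPM in cKO striatum and 36.5 to 43.7 CPM in WT striatum.

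The Atpbd4 log2 fold change, cKO over WT, was −1.38 (SE 0.15, 95% interval −1.72 to −1.05) in striatum and −1.56 (SE 0.10, 95% interval −1.76 to −1.35) in cerebellum. Because this contrast chose the gene, these values, their intervals and the calls of Atpbd4 below are descriptions and do not test the difference. Under every other setting tried the value lay between −1.52 and −1.27 in striatum (14 settings) and between −1.64 and −1.49 in cerebellum (16 settings). Without striatal WT replicate 1, the library that stood apart, the striatal value was −1.41. The 2 differences differed by 0.19 on the log2 scale, striatum minus cerebellum (SE 0.18, 95% interval −0.19 to 0.56). Atpbd4 was 1 of the 6 genes past an adjusted p of 0.05 in each tissue, where 0.384% of 14080 tested genes passed in striatum (0.320% lower and 0.0639% higher) and 7.59% of 14775 in cerebellum (4.96% lower and 2.63% higher), and nothing is read from that count. Without striatal cKO replicate 1 or without striatal cKO replicate 3 the count in striatum was 0, with Atpbd4 at −1.27 and −1.36.

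None of the other 5 genes passed the adjusted threshold in either tissue. In striatum 0 of the 5 had an unadjusted p under 0.05, against 7.24% of all tested genes, and DESeq2 and limma-voom with quality weights called 0 as well. In cerebellum 1 of the 5, Eef2, had an unadjusted p under 0.05, near the 22.5% of all tested genes, and limma-voom called 0 and DESeq2 called Eef2. Their log2 fold changes lay between −0.06 and 0.23 in striatum and between −0.08 and 0.20 in cerebellum, whereas the median over all tested genes was 0.0024 and 0.0044.

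Dph1 and Dph2 encode the enzyme pair of the first step. Dph1 was measured at 12.1, 14.7 and 13.99 CPM in cKO striatum, against 12.3, 11.2 and 11.2 CPM in WT striatum. In cKO cerebellum it was at 9.20, 7.81, 8.78 and 8.48 CPM, against 6.45, 8.45, 7.57 and 7.63 CPM in WT cerebellum. The cKO mean was above the WT mean in both tissues, but the groups overlapped in each. The striatal log2 fold change was 0.23 (SE 0.14, 95% interval −0.08 to 0.54, adjusted p = 0.764). The cerebellar one was 0.20 (SE 0.09, 95% interval −0.00082 to 0.40, adjusted p = 0.224). Of the Dph1 exon bases, 969 (36%) also belong to Ovca2 on the same strand, so its counts are uncertain. Ovca2 itself averaged 16.3 ± 1.02 CPM in cKO striatum and 18.1 ± 1.15 CPM in WT striatum, and 11.01 ± 0.394 CPM in cKO cerebellum and 11.1 ± 0.539 CPM in WT cerebellum.

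Dph2 varied little. It was at 12.1, 12.5 and 12.7 CPM in cKO striatum, against 12.5, 13.5 and 13.0 CPM in WT striatum, and at 14.2, 13.5, 11.9 and 11.8 CPM in cKO cerebellum, against 13.0, 13.4, 13.6 and 13.1 CPM in WT cerebellum. The groups overlapped in both tissues. The 95% interval of the log2 fold change was −0.34 to 0.21 in striatum (estimate −0.06, adjusted p = 0.893) and −0.20 to 0.13 in cerebellum (estimate −0.04, adjusted p = 0.839).

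Dph3, the electron carrier of the first step, which in yeast also serves the Elongator tRNA-modifying complex, had overlapping groups. It averaged 27.7 ± 1.23 CPM in cKO striatum and 25.8 ± 3.67 CPM in WT striatum, where WT replicate 1 was the lowest at 21.8 CPM. In cerebellum it averaged 63.2 ± 2.38 CPM in cKO and 65.9 ± 3.09 CPM in WT. The log2 fold changes were 0.10 (SE 0.13, adjusted p = 0.844) and −0.05 (SE 0.04, adjusted p = 0.546), and the striatal one was −0.0047 without WT replicate 1. A share of 8.91% of the Dph3 exon bases overlaps Oxnad1 on the opposite strand.

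Dnajc24, the DPH4 partner of that step, averaged 7.60 ± 1.61 CPM in cKO striatum and 7.47 ± 1.79 CPM in WT striatum. In cerebellum it averaged 9.86 ± 0.569 CPM in cKO and 10.7 ± 1.01 CPM in WT. Neither difference passed the threshold, at 0.02 on the log2 scale in striatum (SE 0.22, adjusted p = 0.986) and −0.11 in cerebellum (SE 0.08, adjusted p = 0.475). A share of 6.14% of the Dnajc24 exon bases overlaps the pseudogene Dcdc5 on the opposite strand.

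Dph5, the methyltransferase, had overlapping groups in both tissues. It was at 6.39, 9.11 and 7.21 CPM in cKO striatum, against 6.74, 7.09 and 8.01 CPM in WT striatum. In cerebellum it averaged 6.65 ± 0.509 CPM in cKO and 6.14 ± 0.786 CPM in WT. The log2 fold changes were 0.05 (SE 0.18, 95% interval −0.36 to 0.47, adjusted p = 0.943) and 0.13 (SE 0.11, 95% interval −0.10 to 0.35, adjusted p = 0.536). A share of 3.66% of the Dph5 exon bases overlaps A930005H10Rik on the opposite strand. The log2 fold change of A930005H10Rik was 0.67 in striatum (SE 0.26, edgeR adjusted p = 0.628) and −0.02 in cerebellum (SE 0.10, edgeR adjusted p = 0.876 before adjustment and 0.951 after).

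Wdr85, which encodes the DPH7 demethylase that acts between DPH5 and DPH6, was at 24.1, 23.2 and 23.6 CPM in cKO striatum, against 20.0, 19.7 and 22.1 CPM in WT striatum. Every striatal cKO library was above every WT library, but the log2 fold change of 0.20 (SE 0.11, 95% interval −0.04 to 0.44) did not pass the threshold (adjusted p = 0.749). In cerebellum the gene averaged 22.9 ± 1.55 CPM in cKO and 22.4 ± 0.489 CPM in WT, and the groups overlapped (log2 fold change 0.04, SE 0.06, adjusted p = 0.736).

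**Figure D2:**
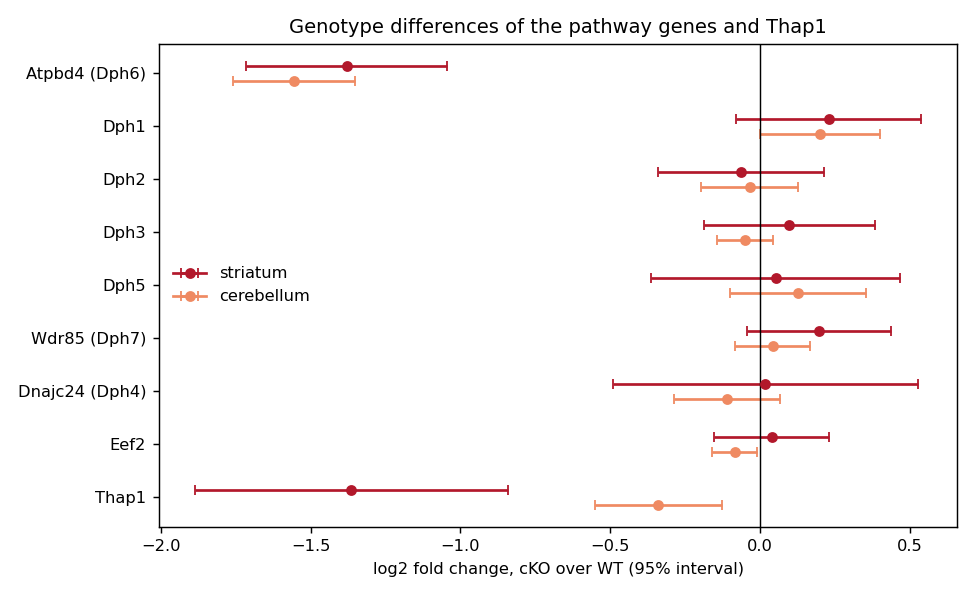
Log2 fold change, cKO over WT (x axis), of the diphthamide genes, Eef2 and Thap1 in striatum and cerebellum, with 95% intervals from the edgeR fits. The Atpbd4 intervals are −1.72 to −1.05 in striatum and −1.76 to −1.35 in cerebellum, and those of the other synthesis genes include 0. Atpbd4 was chosen by its genotype difference, so its distance from the others comes with the choice and is a description.

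Eef2, the substrate of the pathway, was at 1255, 1323 and 1228 CPM in cKO striatum, against 1204, 1240 and 1252 CPM in WT striatum, and the groups overlapped (log2 fold change 0.04, SE 0.08, adjusted p = 0.906). In cKO cerebellum it was at 1159, 1135, 1181 and 1184 CPM, against 1229, 1265, 1243 and 1248 CPM in WT cerebellum. There every cKO library was below every WT library, and the cKO mean was 93.5% of the WT mean. The cerebellar log2 fold change of −0.08 (SE 0.04, 95% interval −0.16 to −0.0091, unadjusted p = 0.0303) did not pass the threshold in edgeR (adjusted p = 0.170). With the DESeq2 Wald test it did (adjusted p = 0.00946), and over the 16 other settings the adjusted p ran from 0.00946 to 0.465. The summed oligodendrocyte marker level was lower in the same cKO libraries, and its part in the Eef2 difference was not tested.

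Eef2k encodes the kinase that phosphorylates and slows eEF2. It averaged 40.7 ± 2.22 CPM in cKO striatum and 37.8 ± 0.906 CPM in WT striatum (log2 fold change 0.10, SE 0.09, adjusted p = 0.812). In cerebellum it averaged 76.2 ± 4.62 CPM in cKO and 85.1 ± 4.49 CPM in WT, with overlapping groups (log2 fold change −0.15, SE 0.05, adjusted p = 0.0756).

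The genotype effect was compared between tissues in 1 model of all 14 libraries. Of the 5 genes other than Atpbd4, 0 passed the threshold and 0 had an unadjusted p under 0.05 (11.6% of all tested genes had), and DESeq2 and limma-voom called 0 of the 6, where 0.390% of 15401 genes passed with edgeR (0.240% lower and 0.149% higher in striatum). The lowest p was that of Eef2, whose log2 fold change was 0.14 higher in striatum than in cerebellum (SE 0.07, 95% interval −0.02 to 0.29, adjusted p = 0.477). A difference between the tissues was therefore not detectable for these genes at this replication.

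The WT libraries give the levels without the knockout. Of the 6 genes, 2 were higher and 1 lower in WT striatum than in WT cerebellum at an adjusted p under 0.05, where 64.2% of 15031 tested genes differed (31.5% higher and 32.7% lower, 4738 and 4908 genes, and 3762 and 6381 genes with library totals alone). Atpbd4, 1 of the 2 higher, averaged 39.2 ± 3.98 CPM in WT striatum, against 15.4 ± 1.13 CPM in WT cerebellum, a 2.56-fold difference (log2 1.35, SE 0.10). The WT libraries also entered the contrast that chose Atpbd4, so its value and its call here are descriptions and not a test. Dph1 averaged 11.6 ± 0.606 CPM in WT striatum, against 7.52 ± 0.818 CPM in WT cerebellum (log2 0.62, SE 0.12, adjusted p = 0.00143), and Ovca2, which shares its exon bases, was also higher in striatum (log2 0.71, SE 0.10). Dph3 ran the other way, at 25.8 ± 3.67 CPM in WT striatum, against 65.9 ± 3.09 CPM in WT cerebellum (log2 −1.35, SE 0.10, adjusted p = 1.52e-06). The groups of these 3 genes did not overlap, but the share of all genes with such groups was not counted, so nothing is read from this. Without striatal WT replicate 1 the Atpbd4 value was 1.38. Tissue and library depth differ together here and cannot be told apart.

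Dph2, Dph5 and Eef2 did not differ between the WT tissues beyond the spread of the libraries. Eef2 averaged 1232 ± 24.9 CPM in WT striatum, against 1246 ± 14.7 CPM in WT cerebellum, with a 95% interval of the log2 fold change of −0.16 to 0.13. The interval was −0.23 to 0.18 for Dph2 and −0.07 to 0.57 for Dph5. Scaling by library totals alone, which moved the median log2 fold change of all genes to −0.20, against −0.03 with TMM, gave Eef2 −0.18 and an adjusted p of 0.0282. Dnajc24 was lower in WT striatum (log2 −0.52, SE 0.16, adjusted p = 0.0185), but this call was lost without striatal WT replicate 3 (−0.41, adjusted p = 0.0742), without cerebellar WT replicate 1 (−0.47, adjusted p = 0.0535) and with a replicate block (−0.56, adjusted p = 0.0512), in a range of 0.00214 to 0.0742 over 14 settings. Eef2k was lower in WT striatum (log2 −1.17, SE 0.07, adjusted p = 4.15e-07).

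Levels of different genes were compared per kilobase of annotated exon. In WT striatum Eef2 stood at 371 ± 7.49 CPM per kilobase of exon, followed by Wdr85 at 8.71 ± 0.539, Dph3 at 7.19 ± 1.02, Dnajc24 at 5.46 ± 1.31, Atpbd4 at 5.29 ± 0.537, Dph1 at 4.30 ± 0.225, Dph2 at 4.29 ± 0.157 and Dph5 at 0.907 ± 0.0815. In this order the ranges of Dph3 and Dnajc24, of Dnajc24 and Atpbd4, and of Dph1 and Dph2 overlapped. In WT cerebellum Atpbd4, at 2.07 ± 0.153 CPM per kilobase of exon, was above Dph5 alone among the synthesis genes, and Dph3, at 18.4 ± 0.860, was the highest of them. In the cKO groups Atpbd4 stood at 2.04 ± 0.357 CPM per kilobase in striatum and 0.700 ± 0.0976 in cerebellum. In cKO cerebellum this level and that of Dph5, 0.769 to 0.918 over the libraries, overlapped. The place of Atpbd4 in the order depends on the length used: its merged exons span 7407 bases and its longest transcript 3010, and per kilobase of longest transcript it averaged 13.0 ± 1.32 CPM in WT striatum, above the 8.97 ± 0.555 of Wdr85.

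**Figure D3:**
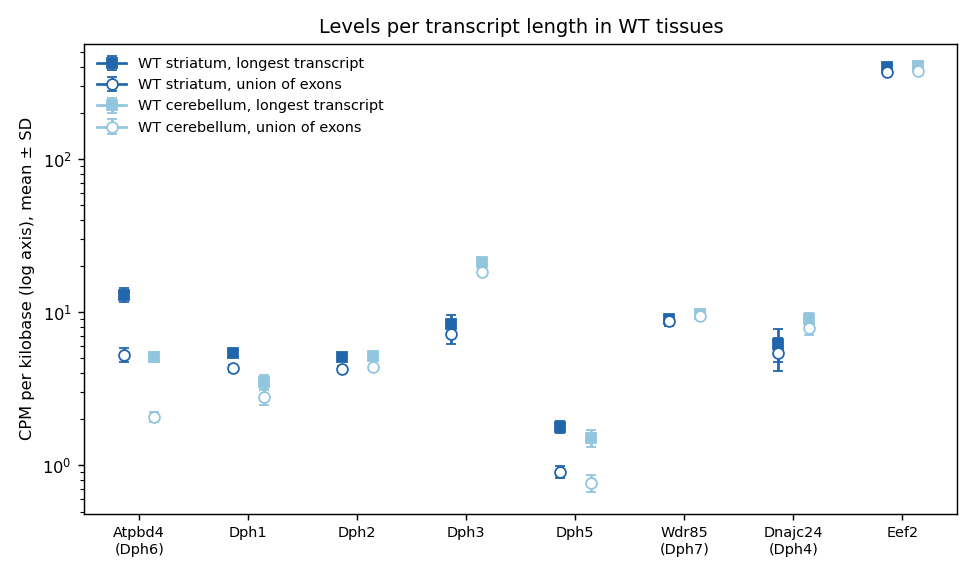
Level in WT striatum and WT cerebellum in CPM per kilobase (y axis, log scale, mean ± SD over 3 and 4 libraries), with squares per longest transcript and open circles per merged exons. Eef2 stands far above the synthesis genes, at 371 CPM per kilobase of exon in WT striatum, and the 2 lengths differ most for Atpbd4, at 13.0 and 5.29 CPM per kilobase in WT striatum.

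Of 43 further genes in 5 lists around the pathway (the 2 other diphthamide genes, translation elongation, hypusine synthesis, Elongator and wobble-uridine modification, and cytosolic iron-sulfur assembly), 0 were called in striatum and 1 in cerebellum. Over all tested genes 0.384% were called in striatum and 7.59% in cerebellum. In striatum 0 of the 43 had an unadjusted p under 0.05, DESeq2 and limma-voom called 0, and 36 (83.7%) had a positive log2 fold change, against 50.6% of all tested genes, with a median of 0.10 against 0.0024. Without WT replicate 1, the library that stood apart, 32 of the 43 (74.4%) were positive, against 51.6% of all tested genes. The median was then 0.03, against 0.0054 over all tested genes. The part of this library in these shares was not tested. Eef1b2, an exchange factor gene picked here after its values were seen, was at 131, 120 and 119 CPM in cKO striatum, against 54.8 CPM in WT replicate 1 and 127 and 125 CPM in the other WT libraries. In cerebellum 21 were positive, with a median of −0.01 against 0.0044, between −0.02 and 0.02 over the other settings. There 9 (20.9%) had an unadjusted p under 0.05, near the 22.5% of all tested genes.

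The gene called was Eif5a2, a hypusine-carrying translation factor, which rose to 118 ± 5.36 CPM in cKO cerebellum, against 109 ± 2.78 CPM in WT cerebellum (log2 fold change 0.13, SE 0.04, adjusted p = 0.0458). Its call was lost under 8 of 16 other settings, with an adjusted p of up to 0.702, among them leaving out WT replicate 1, 2 or 3 or cKO replicate 2, 3 or 4. In striatum the hypusine enzyme gene Dhps averaged 23.02 ± 1.20 CPM in cKO and 19.8 ± 2.03 CPM in WT (adjusted p = 0.759).

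The elongation list held 14 genes. Eefsec, the selenocysteine elongation factor, averaged 19.04 ± 1.64 CPM in cKO striatum and 15.3 ± 2.09 CPM in WT striatum (adjusted p = 0.694). In cerebellum Eef1b2 averaged 89.6 ± 1.06 CPM in cKO and 84.1 ± 1.99 CPM in WT (adjusted p = 0.0682), and the ribosome rescue gene Hbs1l averaged 51.2 ± 0.970 CPM in cKO and 47.4 ± 1.39 CPM in WT (adjusted p = 0.0781). None of these passed the threshold.

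The Elongator and wobble-uridine list held 14 genes and the iron-sulfur list 9, with 0 called in either tissue by edgeR. Over all tested genes 0.384% were called in striatum and 7.59% in cerebellum. In striatum 0 genes of these lists had an unadjusted p under 0.05, against 7.24% of all tested genes. In cerebellum 3 and 0 did, against 22.5%. Ctu1, which encodes a tRNA-thiolating enzyme and was formerly named Atpbd3, averaged 7.84 ± 0.327 CPM in cKO cerebellum and 9.15 ± 0.185 CPM in WT cerebellum (log2 fold change −0.21, adjusted p = 0.112). Nubp2, a scaffold of cytosolic iron-sulfur assembly, averaged 22.2 ± 1.94 CPM in cKO striatum and 18.3 ± 2.81 CPM in WT striatum (log2 fold change 0.28, adjusted p = 0.740).

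The 5 nearest tested genes on each side of Atpbd4 on chromosome 2 were read from the same fits. In striatum 0 of 10 were called, where 0.384% of all tested genes were, with log2 fold changes from −0.27 to 0.17. Of the 10, 0 had an unadjusted p under 0.05 (edgeR), against 7.24% of all tested genes, and DESeq2 and limma-voom called 0. The nearest, Zfp770, a zinc finger gene with its low-coordinate end at −323 kb from that of Atpbd4, stood at −0.17 in striatum and 0.08 in cerebellum. In cerebellum 1 of 9 tested was called, where 7.59% of all tested genes were. Of the 9, 3 (33.3%) had an unadjusted p under 0.05 (edgeR), against 22.5% of all tested genes. The called neighbour, BC052040, had its low-coordinate end 1065 kb from that of Atpbd4 on the other side. It was at 5.51 ± 0.673 CPM in cKO cerebellum and 7.49 ± 0.214 CPM in WT cerebellum (log2 fold change −0.43, SE 0.10, adjusted p = 0.0138). In striatum the same gene stood at −0.06 (SE 0.13).

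**Figure D4:**
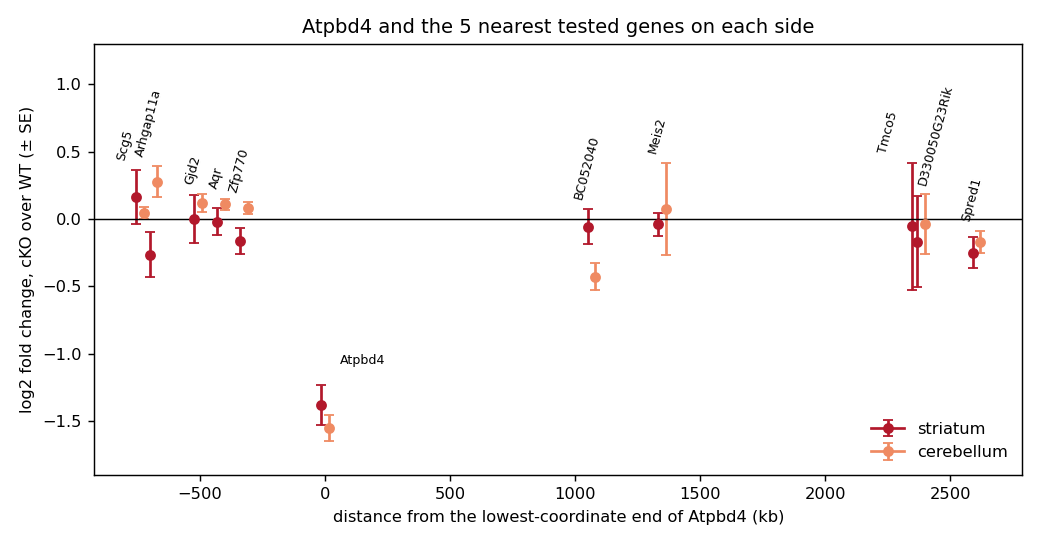
Log2 fold change, cKO over WT (y axis), with SE, of Atpbd4 and its 5 nearest tested genes on each side against the distance of its low-coordinate end from that of Atpbd4 (x axis, kb). Atpbd4 lies at −1.38 in striatum and −1.56 in cerebellum, and its neighbours lie between −0.43 and 0.28 in the tissues where they were tested.

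Among 12839 genes with a mean of at least 1 CPM, the named genes whose log2 CPM over the 14 libraries most resembled that of Atpbd4 were Fam73a (Pearson r = 0.95), Slc12a9 (0.94), Prepl (0.93), Nat15 (0.93) and Ralgds (0.93). The correlations are descriptions: the 14 libraries hold both tissues and both genotypes, and tissue goes with depth. Fam73a, now Miga1, encodes a mitochondrial outer membrane protein and Prepl a prolyl endopeptidase-like protein. In striatum their cKO means were 65.5% and 61.2% of the WT means, and in cerebellum 64.4% and 61.0%, differences smaller than that of Atpbd4. Slc12a9, a member of the cation-chloride transporter family, was at 71.0% of WT in striatum and 60.3% in cerebellum, Nat15 (Naa60), an N-terminal acetyltransferase gene, at 87.9% and 70.2%, and Ralgds, an exchange factor gene for Ral GTPases, at 83.2% and 82.3%. They were picked for following Atpbd4 over these same libraries, so lower levels in cKO come with the choice, and nothing is read from them. The promoter windows of Slc12a9, Prepl, Nat15 and Ralgds held 0 matches to the stricter THAP1 core. The looser core matched 1 time in that of Slc12a9 and 0 times in those of the others. The YY1 core matched 2 times in each window of Prepl and 0 times in those of the others.

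**Figure D5:**
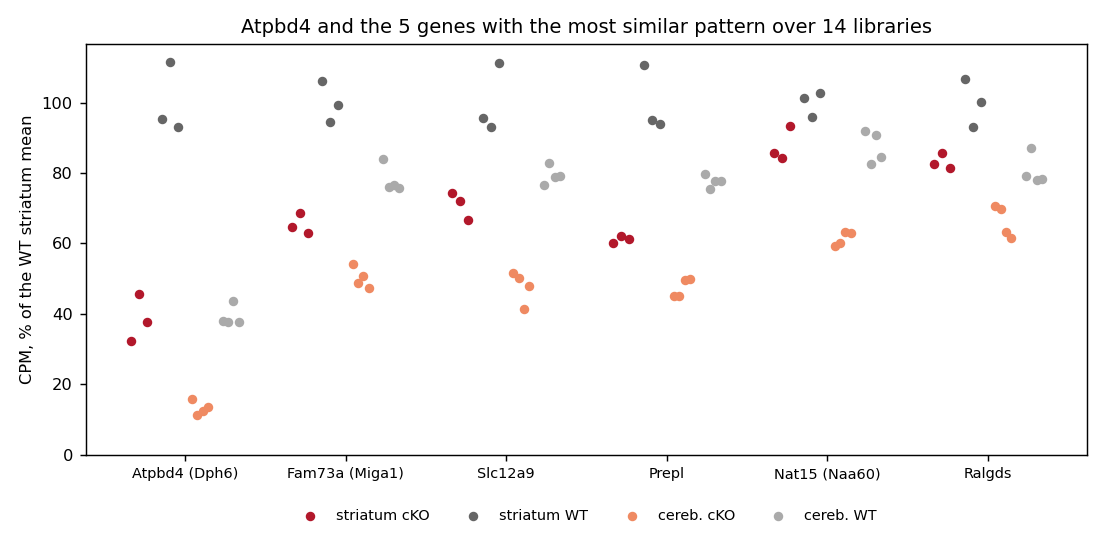
Level of Atpbd4 and of the 5 genes most like it in each library, as a percentage of each gene's mean in WT striatum (y axis, linear from 0), with cKO left of WT within each tissue; points are libraries. Atpbd4 has the widest span of the 6 genes shown, with WT striatum highest and cKO cerebellum lowest.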

How the data were processed

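RNA sequencing of 14 brain samples was read as 1 table of raw read counts per gene symbol and sample, deposited by the authors. The submitters' processing notes name HTSeq 0.6.1p1, cutadapt 1.13, DESeq2, STAR and the build mm10. For the STAR version, gene annotation and strand setting nothing is given in the sources used here, so counts of overlapping genes are uncertain. No rows of unassigned reads were present.

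Counts were normalised with TMM in edgeR 4.0.16 (R 4.3.3) after filterByExpr (minimum count 10, minimum total 15) and tested with the robust quasi-likelihood test, within each tissue for genotype, within WT for tissue, and in 1 model of 14 samples for the difference between tissues. P-values were adjusted by Benjamini-Hochberg over all tested genes and called under 0.05. The SE is the log2 fold change over the square root of F. Printed CPM use TMM factors over all 14 libraries. The share of all genes whose groups did not overlap was not counted, so that trait is a description wherever it is given. Depth was 12595941 to 28099205 counts per library, and the counts of a gene limit its precision. Symbols were matched to GENCODE vM21 (89.6% as current symbols, 8.2% as synonyms, 2.18% not matched).

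The genes and lists were chosen with earlier results of these data known. Besides the 6 genes, those named are Thap1, the other diphthamide genes, up to 4 per list and tissue by call and then smallest p (some not printed), neighbours that were called and the nearest, the 5 genes most correlated with Atpbd4 (log2 CPM, prior count 2; predicted and unnamed symbols skipped), genes sharing exon bases, and tissue and cell markers. Ovca2, Zfp770, A930005H10Rik and Ttr were added after their values were seen. Alternatives were DESeq2's size factors, library totals, a minimum mean of 1 CPM, no filter, the DESeq2 1.42.0 Wald test, limma-voom (limma 3.58.1) with quality weights, a replicate block, all samples in 1 model, another gene length, a looser motif, and leaving out each library. The models were tested on simulated counts.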

Additional observations from a re-analysis of the deposited data

Results flagged for a closer look

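Atpbd4 in WT cerebellum had 1 library far from the others of its group. Replicate 3 was at 17.05 CPM, whereas replicates 1, 2 and 4 were at 14.9, 14.7 and 14.7 CPM, and its gap to the next library, divided by the range of the group, passed Dixon's 95% critical value for 4 samples. Chance flags about 1 in 20 groups. The rule was run on the 6 genes, Wdr85 and Dnajc24 in both cerebellar groups, so this 1 flag is near what chance gives. All 4 WT libraries were above the cKO libraries, which ran from 4.45 to 6.15 CPM.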

How the results depend on the processing

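The Atpbd4 log2 fold changes kept their direction under every setting run. They were −1.52 to −1.27 in striatum, −1.64 to −1.49 in cerebellum and 1.19 to 1.41 between the WT tissues. These same libraries chose Atpbd4, so the settings describe its difference and do not test it. The count of the 6 genes called in striatum was 0 to 1 when a library was left out. In cerebellum it was 2 with DESeq2, which added Eef2. The list count in cerebellum, 1 with edgeR, was 3 with library totals, 0 with limma-voom, 2 with the replicate block, 0 with all 14 samples in 1 model and 0 to 1 when a library was left out. The cause was not tested.

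The values that reversed were not called in the comparison in which they did. With limma-voom they were, in striatum, Dph5 −0.0316, Dnajc24 −0.0972 and Eif5a2 0.0531. With DESeq2's size factors and with its Wald test, Eef2 between the WT tissues was 0.00125. With a library left out, the striatal ranges were −0.00473 to 0.19 for Dph3, −0.17 to 0.24 for Dnajc24, −0.17 to 0.11 for Eif5a2, −0.14 to 0.019 for BC052040 and −0.103 to 0.16 for Dph5. The cerebellar range was −0.0868 to 0.00731 for Dph2. For the difference between tissues the ranges were −0.0551 to 0.0371 for Dph2, −0.21 to 0.0338 for Dph5, −0.0131 to 0.11 for Dph1 and −0.0421 to 0.36 for Dnajc24.

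Counts of all genes called moved more than 1.5-fold. The striatal 54 became 153 with DESeq2, 178 with limma-voom, 376 with all samples in 1 model, 15 with the replicate block and 3 to 122 with a library left out. The cerebellar 1121 became 251 in 1 model and 739 to 1165 with a library left out. The 60 of the difference between tissues became 228 with DESeq2, 13 with the replicate block and 17 to 193 with a library left out. The replicate numbers are not known to pair samples. Deviations of same-numbered samples correlated at 0.0862 to 0.23 in striatum and 0.0467 to 0.28 in cerebellum. Of the samples, 5 of 6 striatal and 2 of 8 cerebellar ones correlated best with their own number. Each had 3 candidates in striatum and 4 in cerebellum, so the cerebellar share is at the chance level and the striatal share above it. What striatal samples of 1 number share is not known, and the main fits hold no replicate block. Thap1 had 48 to 101 counts per library in cKO striatum, which limits its precision.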
